A study of Homo sapiens with 15 samples.

Results

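RAD21, SMC1A, SMC1B, SMC3 and STAG2 are the 5 cohesin subunits among the 730 endogenous genes of the NanoString PanCancer Pathways panel, and they were taken from the raw count table by symbol. The table lists their target transcripts as NM_006265.2, NM_006306.2, NM_148674.3, NM_005445.3 and NM_001042749.1, in that order. The panel had been measured in HCT116, an established human colorectal cancer cell line, with 3 samples in each of 5 groups and 15 samples in all. Control cells were left untreated. The other groups received 40 µM thymoquinone (TQ), a plant-derived quinone, or 15 µM 5-fluorouracil (5-FU), an antimetabolite that inhibits thymidylate synthase, or Combi, a mixture of 35 µM TQ and 35 µM 5-FU, or 35 µM of the SARB hybrid (SARB), in which 5-FU and TQ are linked in a single molecule. All treatments lasted 24 h. No group received the solvent alone according to the labels, so treatment and solvent cannot be told apart.

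Cohesin is a ring-shaped protein complex that holds sister chromatids together from DNA replication to anaphase and extrudes chromatin loops in interphase. SMC1A and SMC3 are the long coiled-coil ATPases of the ring in dividing somatic cells, and SMC1B takes the place of SMC1A in meiosis. RAD21 is the kleisin that closes the ring and is cut by separase at anaphase, and STAG2 binds RAD21 and is mutated in several cancer types. The complex also takes part in DNA double-strand break repair.

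SMC1A and SMC1B are paralogues that differed in whether their transcript was detected. SMC1A was above background in 15 of 15 samples and SMC1B in 0 of 15. The stretches around a start site of each gene, from 250 bases before it to 50 after it, are shown because of that contrast. Both come from RefSeq on GRCh38.p14 and are read 5′ to 3′ on the minus strand, SMC1A at chrX:53422605-53422904 and SMC1B at chr22:45413550-45413849. Capitals mark a match to an E2F motif, searched on both strands as TTTCCCGC or TTTGGCGC.
SMC1A: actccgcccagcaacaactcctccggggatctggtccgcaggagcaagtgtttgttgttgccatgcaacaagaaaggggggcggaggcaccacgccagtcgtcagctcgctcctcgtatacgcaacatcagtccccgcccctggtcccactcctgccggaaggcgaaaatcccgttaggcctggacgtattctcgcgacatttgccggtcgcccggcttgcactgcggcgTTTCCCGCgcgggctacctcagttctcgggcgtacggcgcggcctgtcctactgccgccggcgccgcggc
SMC1B: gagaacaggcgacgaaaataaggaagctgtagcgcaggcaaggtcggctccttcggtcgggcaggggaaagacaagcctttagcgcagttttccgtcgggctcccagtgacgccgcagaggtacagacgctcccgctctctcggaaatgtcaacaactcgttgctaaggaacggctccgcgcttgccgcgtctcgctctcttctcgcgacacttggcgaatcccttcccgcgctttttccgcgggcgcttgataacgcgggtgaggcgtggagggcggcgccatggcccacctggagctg
The SMC1A stretch held the letters TTTCCCGC at position -20 from the start site, and the SMC1B stretch held neither form. Of 35116 RefSeq promoters of the same length, 2.27% held at least 1 form. Both stretches held 34 CpG dinucleotides, against a median of 14 over all promoters. A further SMC1A start site had 21 CpG and no E2F match, and of the 3 STAG2 start sites 1 held TTTGGCGC, at position -51. SMC3 held no E2F letters. These matches describe the letters only.

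Each gene was read by a pair of probes, and the count is the number of reporter barcodes. Endogenous counts summed to between 135017 and 607782 per sample. Scaled counts are raw counts divided by a factor per sample that levels the geometric mean of 40 housekeeping genes. Background was the mean of the 8 negative probes of a sample plus 2 SD. Calls rest on edgeR's quasi-likelihood test over 730 genes: a gene counts as higher or lower where its p-value after Benjamini-Hochberg adjustment is no more than 0.05 and its level changed 1.5-fold or more (0.58 on the log2 scale). All adjusted p-values for single genes below come from that test. In such bulk RNA, fewer cells of a kind and less RNA per cell cannot be told apart. Of 6 colorectal epithelium markers on the panel, 6 were above background in all 15 samples, with summed scaled counts of 2066 to 5095. Of 8 markers of other cell types, 0 were above background in all samples and 5 in none, with sums of 42.2 to 151.

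The samples had been run on 3 cartridges. The first held control replicate 1 and all TQ, 5-FU and SARB samples, the second held control replicates 2 and 3 and Combi replicate 1, and Combi replicates 2 and 3 were on the last. With the cartridge as a term in the fit, the values of TQ, 5-FU and SARB thus rest on a single control sample, replicate 1, and that of Combi on its own replicate 1 and the other two controls. No cartridge held both SARB and Combi. The choice of scaling also mattered, since in the middle of the ranking of all 730 genes the log2 fold change stood at -0.47 for TQ, -0.27 for 5-FU, -0.10 for Combi and -0.41 for SARB (the medians). With TMM, which assumes that most genes do not change, these medians lay between -0.07 and -0.02.

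RAD21, the kleisin, fell in Combi and SARB, to a little over 0.5 of its control level. Its scaled counts were 5632, 5080.4 and 5291 in control. They were 4966, 4962 and 4635 after TQ and 4155, 3896 and 3899 after 5-FU. They were 3100.0, 2469.7 and 2557 after Combi and 3109, 2974 and 3002 after SARB. Every treated sample lay below every control sample, as was the case for 39.5% of all genes with TQ, 27.8% with 5-FU, 16.7% with Combi and 28.9% with SARB. The means were 5335 ± 279 in control, 4854 ± 189.6 with TQ, 3983 ± 148 with 5-FU, 3029 ± 71.0 with SARB and 2709 ± 341 with Combi (SD, n = 3 each), in that order. SARB and Combi, next to each other in this order, overlapped.

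The log2 fold change of RAD21 was -0.98 (SE 0.10, adjusted p = 1.71e-07) in Combi, so that the level was 0.508 of control. In SARB it was -0.82 (SE 0.10, adjusted p = 2.57e-06), or 0.568 of control. Both were called. With the cartridge in the fit they were -0.74 (adjusted p = 0.000123) and -0.90 (adjusted p = 2.88e-06) and were still called. With TMM, Combi gave -0.90 and was called, while SARB gave -0.47 (adjusted p = 0.0154) and no longer reached the fold. The 5-FU value of -0.42 (SE 0.10, adjusted p = 0.00277) passed the test without reaching the fold, and with TMM it was -0.23 (adjusted p = 0.269). TQ at -0.14 (SE 0.10, adjusted p = 0.281) did not pass, and its direction turned with TMM, to 0.31 (adjusted p = 0.114). Relative to the whole panel, the RAD21 value stood at percentile 3.84 of all genes in Combi and at percentile 29.9 in SARB.

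**Figure D1:**
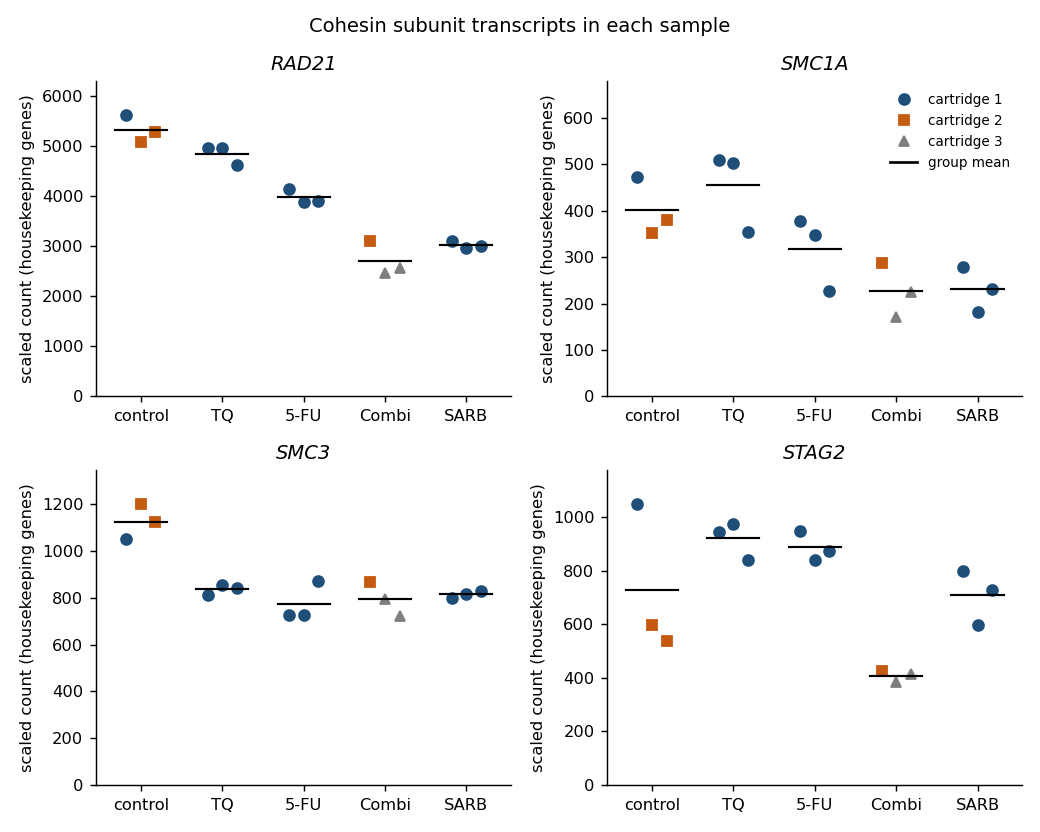
Scaled counts (y axis, from 0) of RAD21, SMC1A, SMC3 and STAG2 in each of the 15 samples, by group (x axis); each point is a sample, its marker gives the cartridge, and the line is the mean of 3 samples. RAD21 stepped down from 5335 in control to 2709 in Combi, SMC3 was lower than control in all 12 treated samples under this scaling, and the control samples of STAG2 split by cartridge, with 1051 on the first and 597 and 536 on the second. Every sample of a group lay below every control for 39.5% of all genes with TQ, 27.8% with 5-FU, 16.7% with Combi and 28.9% with SARB.

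SMC1A, the partner of SMC3 in the ring, fell in the same groups as RAD21 with a larger spread between samples. Its scaled counts were 472, 352 and 379 in control. They were 287, 172 and 225 after Combi and 278, 181 and 231 after SARB. All samples of both groups lay below the lowest control, as was the case for 16.7% of all genes with Combi and 28.9% with SARB. After TQ they were 509, 503 and 355 and after 5-FU 379, 348 and 226, and both overlapped with control. The means were 456 ± 87.5 with TQ, 401 ± 62.8 in control, 318 ± 80.7 with 5-FU, 230.3 ± 48.8 with SARB and 228 ± 57.5 with Combi (SD, n = 3 each). TQ and control overlapped, as did control and 5-FU and SARB and Combi, while 5-FU also reached into the range of SARB.

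SMC1A was called lower in Combi, at -0.83 (SE 0.21, adjusted p = 0.00403), and in SARB, at -0.79 (SE 0.21, adjusted p = 0.00554), on the log2 scale. TQ gave 0.19 (adjusted p = 0.478) and 5-FU gave -0.33 (adjusted p = 0.252), and neither passed. The direction in TQ turned with the cartridge, to -0.05 (adjusted p = 0.960), and with TMM the value was 0.64 (adjusted p = 0.0564). In 5-FU the values were -0.57 (adjusted p = 0.187) and -0.13 (adjusted p = 0.738). The Combi call depended on the cartridge, since with that term the value was -0.35 (SE 0.29, adjusted p = 0.599), while SARB stayed called at -1.03 (SE 0.26, adjusted p = 0.00903). TMM had the opposite effect: Combi stayed called at -0.75 (adjusted p = 0.0217) and SARB, at -0.44 (adjusted p = 0.175), did not.

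SMC3, the other ATPase of the ring, was lower in all 4 treatments under housekeeping scaling, by a similar amount and by less than 1.5-fold, while with TMM its value in TQ turned to 0.03. Its scaled counts were 1053, 1204 and 1123 in control. They were 814, 854 and 843 after TQ and 727, 727 and 871 after 5-FU. They were 868, 795 and 722 after Combi and 798, 818 and 829.8 after SARB. All 12 treated samples lay below all 3 control samples, and all 4 treated groups overlapped with each other. Of all genes, 39.5% had every TQ sample below every control, 27.8% every 5-FU sample, 16.7% every Combi sample and 28.9% every SARB sample. The means were 1127 ± 75.5 in control, 837 ± 20.7 with TQ, 815 ± 16.2 with SARB, 795 ± 73.0 with Combi and 775 ± 83.0 with 5-FU (SD, n = 3 each).

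SMC3 had a log2 fold change of -0.43 (adjusted p = 0.0064) with TQ, -0.54 (adjusted p = 0.000641) with 5-FU, -0.50 (adjusted p = 0.000972) with Combi and -0.47 (adjusted p = 0.00196) with SARB, each with an SE of 0.11. An adjusted p of at most 0.05 with a lower level was reached by 29.9% of all genes with TQ, 15.8% with 5-FU, 12.6% with Combi and 27.5% with SARB. The median of all genes in TQ and SARB was close to the SMC3 value, and with TMM SMC3 had adjusted p = 0.877 in TQ and gave -0.11 (adjusted p = 0.555) in SARB. With the cartridge in the fit, neither group passed, TQ giving -0.33 (adjusted p = 0.143) and SARB -0.37 (adjusted p = 0.0547). Its decrease in Combi passed under either scaling, at -0.42 (adjusted p = 0.0279) with TMM, and also with the cartridge in the fit, at -0.42 (adjusted p = 0.0486). For 5-FU the value was -0.35 (adjusted p = 0.0738) with TMM and -0.44 (adjusted p = 0.0245) with the cartridge. The 5-FU value lay close to the fold, and it was called without control replicate 1 (-0.59) or without 5-FU replicate 3 (-0.63).

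STAG2 had the widest spread of the detected members in control, and its control samples differed between cartridges. Its scaled counts were 1051, 597 and 536 in control, the first being the sample on the first cartridge. They were 947, 977 and 841 after TQ, 949, 841 and 875 after 5-FU and 798, 599 and 729 after SARB, all on the first cartridge. They were 425, 384 and 413 after Combi, on the other two cartridges. Samples on the first cartridge were thus the higher ones whatever the treatment, the lowest of them, SARB replicate 2, lying just above control replicate 2. Control replicate 1 was 1.86-fold above the mean of the other two controls (taken on the log2 scale), the 12th largest such gap among 405 genes above background in all samples, where the median gap was 0.23 on the log2 scale. For SMC1A the ratio was 1.29, for RAD21 1.09 and for SMC3 0.905.

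The group means of STAG2 were 921 ± 71.1 with TQ, 888 ± 55.1 with 5-FU, 728 ± 282 in control, 709 ± 101 with SARB and 407 ± 21.3 with Combi (SD, n = 3 each), and only Combi was free of overlap with its neighbours in this order. All Combi samples lay below all controls, as was the case for 16.7% of all genes. Pooled over cartridges, STAG2 was called lower in Combi, at -0.84 (SE 0.18, adjusted p = 0.000938), and its values of 0.34 (adjusted p = 0.130) in TQ, 0.29 (adjusted p = 0.242) in 5-FU and -0.03 (adjusted p = 0.878) in SARB did not pass. With the cartridge in the fit, Combi gave -0.41 (adjusted p = 0.127) and was not called. TQ and 5-FU then turned to -0.19 (adjusted p = 0.502) and -0.24 (adjusted p = 0.375), and SARB to -0.57 (adjusted p = 0.0117), just under the fold. Within the first cartridge all 9 treated samples lay below the single control, and within the second Combi replicate 1, at 425, lay below both controls. The share of all genes with such an order was not counted. Each of these orders rests on a single control or a single Combi sample. With TMM the pooled TQ value became 0.78 (adjusted p = 0.0165) and was called higher, 5-FU gave 0.46 (adjusted p = 0.146), and SARB turned to 0.30 (adjusted p = 0.320). Without control replicate 1, STAG2 was called higher in TQ, at 0.70, and in 5-FU, at 0.65, and was not called in Combi, at -0.48. Cartridge and culture cannot be told apart for control replicate 1, the only control on its cartridge.

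**Figure D2:**
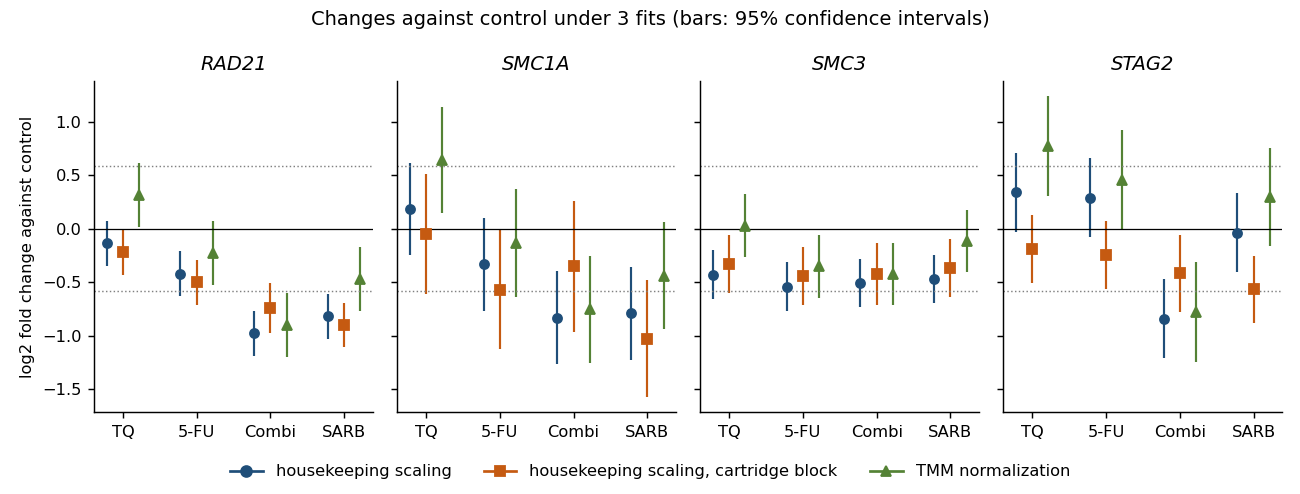
Log2 fold change against control (axis in log2 units) with its 95% interval for RAD21, SMC1A, SMC3 and STAG2 in the 4 treatments, under housekeeping scaling, under housekeeping scaling with the cartridge in the fit, and under TMM; dotted lines stand at a fold of 1.5. RAD21 in Combi lay past the line in all 3 settings (-0.98, -0.74 and -0.90), while STAG2 in TQ went from 0.34 to -0.19 with the cartridge term.

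SMC1B, the meiotic subunit, was not detectable above background in any group. Its raw counts were 10, 21 and 21 in control, 4, 8 and 4 after TQ and 9, 7 and 16 after 5-FU. They were 23, 20 and 20 after Combi and 10, 14 and 8 after SARB. All 15 values lay under their sample's threshold, and the counts were highest in control replicates 2 and 3 and the Combi samples, all off the first cartridge, where the negative probes were high too. The negative probes averaged 6.75, 12.0 and 12.2 counts in the control samples and 3.12, 5.75 and 4.25 in the TQ samples. The numbers of the call were met in TQ, at -2.08 (adjusted p = 0.0148), and in SARB, at -1.50 (adjusted p = 0.0379), although no sample held a measurable level. With the cartridge in the fit the values were -1.38 (adjusted p = 0.343) and -0.80 (adjusted p = 0.563), and with TMM they were -1.61 (adjusted p = 0.0313) and -1.21 (adjusted p = 0.0508). No other marker of germ cells or meiosis from the list was on the panel.

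**Figure D3:**
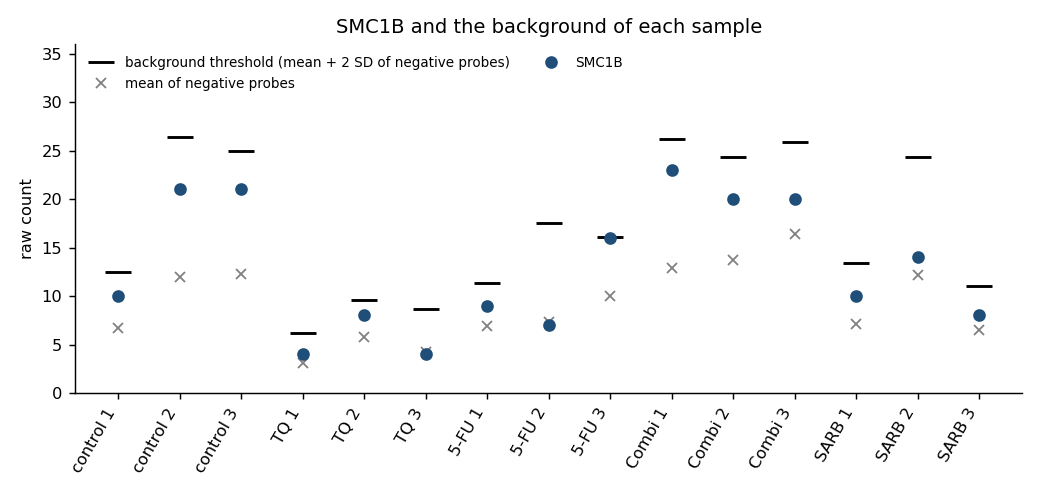
Raw SMC1B count, the mean of the 8 negative probes and the background threshold (mean plus 2 SD of these probes) in each of the 15 samples, in counts. SMC1B ran from 4 to 23 counts and stayed under the threshold in every sample, and its highest counts, 20 to 23, were in the 5 samples off the first cartridge.

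Counted over the 5 members, TQ had 0 called higher and 1 lower, which was SMC1B at background, where 3.42% and 21.6% of all genes were called in these directions. 5-FU had 0 in either direction, against 10.1% higher and 10.1% lower. Combi had 0 higher and 3 lower, RAD21, SMC1A and STAG2, against 13.6% and 6.58%. SARB had 0 higher and 3 lower, RAD21, SMC1A and SMC1B, against 8.63% and 20%. Over the 4 members above background the median log2 fold change was 0.03 for TQ, -0.38 for 5-FU, -0.83 for Combi and -0.63 for SARB. The panel medians, over all genes whether detected or not, were -0.47, -0.27, -0.10 and -0.41 in that order. With genes of low counts filtered out, the panel medians were -0.35, -0.17, -0.05 and -0.28. With the cartridge in the fit the members' medians were -0.20, -0.47, -0.42 and -0.73, beside panel medians of -0.32, -0.06, -0.06 and -0.23 over all genes. With TMM the members' medians were 0.48, -0.18, -0.77 and -0.28, beside panel medians of -0.02, -0.07, -0.02 and -0.07 over all genes. All 4 comparisons share the control samples.

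SARB and Combi carried the same labelled concentration, 35 µM, and differ in structure in that the hybrid joins the 5-FU and TQ parts in a single molecule while Combi is a mixture of both. RAD21 was 0.16 higher in SARB on the log2 scale (95% interval -0.05 to 0.37, adjusted p = 0.270), SMC1A 0.04 (-0.39 to 0.47, adjusted p = 0.904) and SMC3 0.04 (-0.19 to 0.26, adjusted p = 0.819). No difference between SARB and Combi passed for these genes, and the intervals leave room for differences of up to those bounds. With TMM the RAD21 difference was 0.43 (adjusted p = 0.0473), still under the fold, and with the cartridge in the fit it turned to -0.15 and that of SMC1A to -0.68 (adjusted p = 0.997 for both). STAG2 was the only member called, at 0.80 (0.44 to 1.17, adjusted p = 0.00323), where 0.959% of all genes were called higher in SARB and 11.2% lower. All SARB samples of STAG2, 599 to 798, lay above all Combi samples, 384 to 425, as was the case for 4.93% of all genes. These samples lay on different cartridges, and with the cartridge in the fit the STAG2 difference was -0.15 (-0.63 to 0.33, adjusted p = 0.997). Compound and cartridge cannot be told apart for STAG2. Over all members this was a comparison of 1 pair of treatments, with p-values adjusted over 730 genes. TQ at 40 µM and 5-FU at 15 µM differ in dose from both and were not compared with them.

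The ratio of a pair of subunits within a sample does not depend on scaling, and its change across groups tells whether the subunits kept step. For the 6 pairs of the 4 detected members, an exact permutation test of the F statistic over all 1401400 partitions of the samples was used, one-sided, with adjustment over 6 pairs. No change of the RAD21 to SMC1A ratio was detected, with F = 0.74 (exact p = 0.580, adjusted p = 0.580). RAD21 and SMC3 did not keep step, with F = 18.6 (exact p = 0.00033, adjusted p = 0.00198). The RAD21 count was 4.76 ± 0.57 times the SMC3 count in control, 5.80 ± 0.30 times with TQ, 5.18 ± 0.64 times with 5-FU, 3.41 ± 0.26 times with Combi and 3.72 ± 0.16 times with SARB (SD, n = 3 each). All TQ samples lay above all controls, all Combi and SARB samples below them, and the 5-FU samples overlapped with control. The share of other gene pairs with such an order was not counted. The control ratio was 5.35 on the first cartridge and 4.22 and 4.71 on the second. On the first cartridge the TQ samples were at 5.50 to 6.10 and the SARB samples at 3.62 to 3.90.

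The 3 pairs with STAG2 also differed across groups by the exact permutation test, RAD21 to STAG2 with adjusted p = 0.0165, SMC1A to STAG2 with adjusted p = 0.0198 and SMC3 to STAG2 with adjusted p = 0.0165. The controls were not alike in these ratios, and the SMC3 to STAG2 ratio was 1.00 in control replicate 1 and 2.02 and 2.09 in the other two controls. It was 0.86 to 1.00 with TQ, 0.77 to 1.00 with 5-FU and 1.00 to 1.37 with SARB, all on the first cartridge like control replicate 1, and 1.75 to 2.07 with Combi, on the other two. Treatment and cartridge cannot be told apart in these values. SMC1A to SMC3 missed the threshold, with adjusted p = 0.0795 in the exact test. Within the first cartridge alone, with 10 samples, no pair passed after adjustment in the exact permutation test over 2800 partitions. RAD21 to SMC3 had exact p = 0.0182 and adjusted p = 0.109 there, and the 3 pairs with STAG2 had adjusted p = 0.157.

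**Figure D4:**
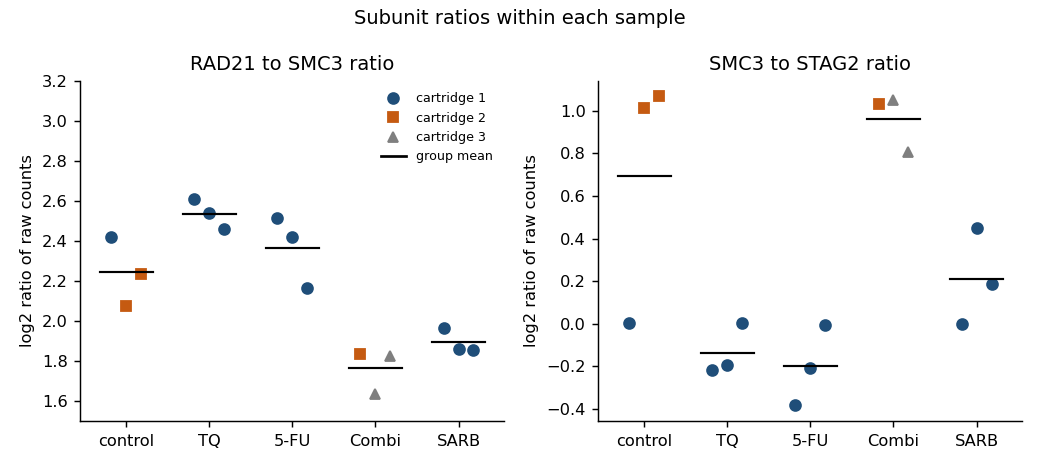
Log2 ratio of raw counts within each sample for RAD21 to SMC3 and SMC3 to STAG2 (y axes), by group, with 1 point per sample, the marker giving the cartridge and the line the mean of 3 samples. The RAD21 to SMC3 ratio fell from a mean of 2.24 in control to 1.77 in Combi and 1.89 in SARB on the log2 scale; SMC3 to STAG2 split the controls, with the sample on the first cartridge near 0.

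Patterns over the 15 samples were compared by the root mean square difference of log2 scaled counts, each gene centred on its mean, among 404 other genes above background in all samples. This measure contains the shared cartridges and scaling, and it is a description. Closest to RAD21 were PRKAR2B, a regulatory subunit of protein kinase A (0.12), MCM7, a subunit of the replicative helicase (0.13), and UBE2T, the ubiquitin-conjugating enzyme of the Fanconi anaemia pathway (0.14). Closest to SMC1A were UBE2T (0.19), the histone methyltransferase WHSC1 (0.20) and the growth factor BMP4 (0.23). Among the subunits themselves RAD21 and SMC1A were the most alike (0.24), SMC1A being in place 21 for RAD21 and RAD21 in place 6 for SMC1A. Closest to SMC3 were RFC4, a subunit of the clamp loader (0.068), NBN of the MRN complex (0.11) and the deacetylase HDAC2 (0.12). STAG2 had no neighbour as near, the first being the DNA methyltransferase DNMT1 (0.22), the kinase CDK6 (0.26) and PPP2R1A, the scaffold of protein phosphatase PP2A (0.27). The measure is not scaled by how much each gene itself varied, so distances of different genes are not on equal terms. The root mean square around a gene's own mean was 0.21 for SMC3, 0.39 for RAD21, 0.47 for STAG2 and 0.49 for SMC1A. SMC3 and STAG2 were the least alike pair of subunits (0.52).

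A list of other cohesin subunits and of factors that load, release, acetylate, cleave or otherwise act with the complex held 24 symbols. Some of these are older names of the same gene. Of the list, 1 was on the panel, PTTG2, a paralogue of the separase inhibitor securin (PTTG1). Its probe may also capture the near-identical PTTG1. PTTG2 was lower in 5-FU (-0.78, adjusted p = 0.00019), Combi (-0.79, adjusted p = 0.000131) and SARB (-0.89, adjusted p = 4.15e-05), and these calls held with the cartridge in the fit. With TMM the SARB value was -0.55 and was not called. The mean scaled count was 1098 in control, 638 with 5-FU, 634 with Combi and 595 with SARB.

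Genes of mitotic entry, the spindle checkpoint and anaphase, the processes in which cohesin is removed, numbered 13 on the panel out of 34 listed. TQ had 0 of them higher and 1 lower, 5-FU had 2 and 5, Combi 0 and 4 and SARB 1 and 5, where the panel shares were 3.42% and 21.6%, 10.1% and 10.1%, 13.6% and 6.58%, and 8.63% and 20%. The 5 lower in SARB included CCNB3, which was near background, with mean scaled counts of 10.9 in SARB and 27.0 in control. The background thresholds of the controls were 19.2, 35.5 and 37.2 on that scale. The CCNB3 call was lost with TMM and with the cartridge in the fit. With TMM the counts were 2 and 0, 2 and 4, 0 and 4, and 1 and 4, and with the cartridge in the fit 0 and 2, 1 and 5, 0 and 4, and 1 and 4, in the same order of groups. CCNB1, the cyclin of mitotic entry, had log2 fold changes of -1.26 in 5-FU, -1.63 in Combi and -1.71 in SARB. TTK, the spindle checkpoint kinase, had values of -0.87, -0.78 and -0.97 there. CCNA2 and CDC25C, a cyclin and a phosphatase that act before mitosis, were also lower in all 3 of these groups, while CDC25A, a phosphatase that acts at the entry to S phase, was higher in 5-FU (0.65) and SARB (0.66). The calls named here for CCNB1, TTK, CCNA2, CDC25C and CDC25A in 5-FU, Combi and SARB held with TMM and with the cartridge in the fit. The 1 gene lower in TQ was CDC25C too, at -0.79 (adjusted p = 0.00137). That call held with the cartridge in the fit (-0.77) and was lost with TMM (-0.32). The list's median log2 fold change was -0.37 with TQ, -0.45 with 5-FU, -0.30 with Combi and -0.42 with SARB.

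Of 42 listed DNA replication genes, the step at which cohesion is set up, 14 were on the panel. TQ had 0 of these higher and 1 lower, 5-FU 1 and 4, Combi 2 and 4 and SARB 0 and 4. The panel shares lower were 21.6%, 10.1%, 6.58% and 20%. In the same order the counts higher and lower with TMM were 1 and 0, 2 and 2, 3 and 4, and 3 and 2, and with the cartridge in the fit 0 and 1, 0 and 3, 1 and 2, and 0 and 3. The panel counts in these settings are those given with the mitotic genes. MCM7 was lower in 5-FU (-0.73), Combi (-1.03) and SARB (-0.92), though the 5-FU and SARB calls were lost with TMM. MCM5, of the same helicase, was lower in 5-FU (-0.85), Combi (-0.77) and SARB (-1.12), with the Combi call lost with the cartridge in the fit. PCNA, the sliding clamp, went the opposite way in Combi (0.72) and was lower in TQ (-0.70). The TQ call was lost with TMM and the Combi call with the cartridge in the fit. The list median was -0.36 with TQ, -0.44 with 5-FU, -0.34 with Combi and -0.46 with SARB.

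Genes of double-strand break signalling and repair, 24 on the panel of 44 listed symbols, moved in both directions. TQ had 1 of them higher and 4 lower, 5-FU 2 and 4, Combi 2 and 3 and SARB 1 and 6, against the same panel shares. TMM left 2 higher and 0 lower in TQ, 2 and 2 in 5-FU, 2 and 2 in Combi and 3 and 2 in SARB. The cartridge term left 0 and 1, 2 and 1, 0 and 2, and 0 and 3. The panel counts in both settings are again those given with the mitotic genes. CHEK1, the checkpoint kinase, was lower in 5-FU (-0.69), Combi (-0.66) and SARB (-0.76), and H2AFX, the histone variant that marks breaks, with TQ (-1.02), 5-FU (-0.93), Combi (-1.53) and SARB (-1.16). With TMM, CHEK1 was called in none of these and H2AFX in the last 3, and with the cartridge in the fit H2AFX was called in Combi and SARB only. UBE2T, near to both RAD21 and SMC1A in pattern, was lower in Combi (-0.92) and SARB (-0.79). The UBE2T call was lost in Combi with the cartridge in the fit and in SARB with TMM. XRCC4, of non-homologous end joining, was higher in 5-FU (0.87) and SARB (0.74), the SARB call being lost with the cartridge in the fit. The list median was -0.27 with TQ, -0.37 with 5-FU, -0.13 with Combi and -0.36 with SARB. Between SARB and Combi, where 0.959% of all genes were called higher and 11.2% lower, 0 of the mitotic and replication genes and 3 of the repair genes were called, ATM and RAD52 lower and XRCC4 higher in SARB, and none of the 3 was called with the cartridge in the fit. With TMM the counts higher and lower were 2 and 0 for the mitotic, 1 and 0 for the replication and 3 and 1 for the repair genes.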

How the data were processed

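HCT116 RNA was measured on the nCounter PanCancer Pathways panel in 15 samples. The authors deposited raw counts per probe, without normalization, which were the values tested here. The second table the authors deposited holds normalized signal values, made in nSolver and scaled to the geometric mean of the housekeeping genes. The third table holds the authors' own fold changes and p-values and was not used. Groups came from the sample labels, and the design text describes the samples of a group as biological replicates. Counts were fitted for 730 genes and 5 groups in edgeR 4.0.16 (R 4.3.3), with library sizes from the geometric mean of 40 housekeeping genes. Alternatives were TMM, DESeq2 1.42.0, limma 3.58.1 on the deposited signal values (log2, pseudocount 1), a filter of 20 counts in 3 samples, the cartridge and the replicate number as blocks, and leaving out each sample. Fits on a single cartridge and the cartridge with TMM were chosen after seeing the data. The text names the 5 members, the 3 genes nearest to each detected member, and called genes of the lists. Members and lists were chosen with earlier results of these data known. The scripts were tested on simulated data with 200 changed genes. Counting limits precision for genes near background. The p-values for single genes rest only on the spread between samples within groups of 3, estimated over all 5 groups and shared across genes. Those for ratios rest on permuting the samples between groups.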

Additional observations from a re-analysis of the deposited data

How the results depend on the processing

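With TMM, TQ had 1 member called higher (STAG2) and SARB 0 lower, and DESeq2 gave the same counts, 1 and 0. With the cartridge as a block, TQ had 0 called lower, Combi 1 (RAD21) and SARB over Combi 0 higher. With cartridge block and TMM together, TQ had 0 lower, Combi 1, SARB 1 and SARB over Combi 0 higher. On the first cartridge alone, with 1 control sample, SMC1B in TQ was at -1.36 on the log2 scale. On the second alone 1 Combi and 2 control samples remained. There the Combi values were -0.74 for RAD21, -0.35 for SMC1A and -0.41 for STAG2, the last 2 under the fold. With 1 Combi sample these are sizes only, and none of them, RAD21 included, carries a call. With limma on the deposited values 5-FU had 1 called lower (SMC3, at -0.61), and SMC3 was also called lower in Combi, at -0.60. The filter on low counts changed no member's call. Signs turned on the log2 scale with TMM for RAD21 (0.31) and SMC3 (0.0305) in TQ and STAG2 (0.30) in SARB, and with DESeq2 for the same, at 0.35, 0.0671 and 0.31. With the cartridge block they turned for SMC1A (-0.0473) and STAG2 (-0.19) in TQ, STAG2 (-0.24) in 5-FU, and RAD21 (-0.15), SMC1A (-0.68) and STAG2 (-0.15) in SARB over Combi. The first cartridge alone gave -0.0477, -0.19 and -0.24 for the first 3. Block and TMM together turned RAD21 (0.12) and SMC3 (0.0114) in TQ, STAG2 (-0.16) in 5-FU and SMC1A (-0.50) in SARB over Combi. The cause of these changes was not tested.

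Leaving out each sample in turn gave 0 to 1 member called in each direction in TQ and in 5-FU, 2 to 3 lower in Combi and in SARB, and 1 to 1 higher in SARB over Combi. With 1 sample left out, signs turned for STAG2 in SARB (range -0.212 to 0.33, above 0 without control replicate 1 or SARB replicate 2), for SMC1A in SARB over Combi (-0.14 to 0.226, below 0 without Combi replicate 2 or SARB replicate 1) and for SMC3 there (-0.0271 to 0.1041, below 0 without Combi replicate 3). SMC3 was called lower in 5-FU without control replicate 1 or 5-FU replicate 3. SMC1B lost its call in TQ without control replicate 3 or TQ replicate 2, and in SARB without control replicate 2 or 3 or SARB replicate 1 or 3. STAG2 was called higher in TQ and 5-FU and lost its call in Combi without control replicate 1. Adjusted p-values of the ratio tests by exact permutation ranged with 1 sample left out from 0.3412 to 0.8311 for RAD21 to SMC1A, 0.00041 to 0.00887 for RAD21 to SMC3, 6.85e-05 to 0.0383 for RAD21 to STAG2, 0.0188 to 0.207 for SMC1A to SMC3, 0.0104 to 0.0506 for SMC1A to STAG2 and 0.00041 to 0.0341 for SMC3 to STAG2. The value of 0.0506 was that without SARB replicate 2, and 0.0188 that without 5-FU replicate 3. On the first cartridge alone the exact permutation test gave 0.109 for RAD21 to SMC3 and 0.157 for each of the pairs with STAG2.

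Deviations from the group means correlated between -0.50 and 0.47 over 30 pairs of samples with the same replicate number, 10 of them over 0.1. Over 60 pairs with different numbers they correlated between -0.52 and 0.55, 15 of them over 0.1. Whether samples of the same number belonged together cannot be told from these values, which also contain the cartridges. With the replicate block, the only member whose call changed was SMC1B in SARB, at -1.50, which stayed at background, and the SMC1A to SMC3 ratio passed in the exact permutation test (adjusted p = 0.01245).

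Over all 730 genes, calls higher and lower were 25 and 158 in TQ, 74 and 74 in 5-FU, 99 and 48 in Combi, 63 and 146 in SARB and 7 and 82 in SARB over Combi. TMM gave 79 and 44 in TQ, 41 lower in 5-FU, 120 and 68 in SARB and 39 and 54 in SARB over Combi, and DESeq2 85 and 39, 35, 116 and 60, and 48 and 40. The cartridge block gave 13 and 26 in TQ, 39 lower in 5-FU, 61 higher in Combi, 56 lower in SARB and 0 and 1 in SARB over Combi. Leaving out 1 sample gave 21 to 34 higher and 62 to 208 lower in TQ, 62 to 79 and 54 to 104 in 5-FU, 81 to 104 and 44 to 67 in Combi, 54 to 73 and 91 to 243 in SARB and 6 to 12 and 40 to 148 in SARB over Combi. Counts moved over 1.5 times without TQ replicate 2 (62) or control replicate 3 (82) for TQ lower, for SARB lower without SARB replicate 2 (243), SARB replicate 3 (92) or the control of number 3 (91), without Combi replicate 3 (49), SARB replicate 2 (148) or SARB replicate 3 (40) for SARB over Combi lower, and without Combi replicate 1 (12) for SARB over Combi higher. The panel shares beside the members' counts move with them.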
